A study of Homo sapiens with 6 samples.

Results

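The nucleolar ribosome biogenesis factors described here are 42 genes chosen by function: proteins of small nucleolar ribonucleoproteins, factors that process and assemble ribosomal RNA, and RNA polymerase I with its cofactors. Earlier results of these data were known when the genes and gene lists were chosen, so shares set beside those of all genes are descriptions. The deposited tables listed 60612 genes, of which 15395 passed the filter on low counts and were tested. Each of the 42 genes matched a single gene ID and all 42 passed that filter. Total RNA was sequenced from KO52, an established acute myeloid leukemia line whose labelled genotype is CEBPA double mutant, so EV, dnCEBP and dnFOS cells all carried that genotype. The cells had been transduced with a doxycycline-inducible lentiviral vector (pCW57.1), treated with doxycycline and sorted for GFP. The insert was a dominant negative peptide of C/EBP (dnCEBP) or of FOS (dnFOS), and the control vector (EV) was empty. Each peptide pairs with members of its own family, C/EBP or AP-1, and keeps the dimer off DNA.

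Each group held 2 libraries, and the sources used here do not say whether these came from separate cultures, so p-values measure only the spread between these libraries. Library totals ran from 9862994 to 27663179 counts, and the dnFOS libraries, with 9862994 and 14583615, were the shallowest. Replicates correlated at r = 0.981 to 0.987 on log2 CPM, across genes, which are not independent. CD34, KIT, CD33, MPO, ANPEP, PTPRC, SPI1 and CD38, markers of the myeloid progenitor state, were counted in every library, at 11.1 to 489 CPM of the library total. The neutrophil marker FCGR3B had 0 counts in every library. CD3E, HBA1, COL1A1 and COL1A2 stayed at or below 0.231 CPM, and CD14 at or below 0.272 CPM. Other markers of such cells were counted in every library: CD3D at 95.1 to 141 CPM, LYZ at 56.0 to 76.5, EPCAM at 27.1 to 39.4, KRT8 at 6.59 to 12.5, CXCR2 at 2.81 to 5.21, HBB at 0.608 to 2.42, CD79A at 0.823 to 1.59 and PDGFRB at 0.206 to 0.735 CPM.

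Ribosomes are assembled in the nucleolus, where RNA polymerase I transcribes a long precursor that is cut and trimmed into the 18S, 5.8S and 28S rRNAs. Box C/D and H/ACA ribonucleoproteins, each built from a guide RNA and a fixed set of proteins, methylate riboses or convert uridines to pseudouridine at chosen positions. Small and large subunit factors then fold and cleave the precursor and load ribosomal proteins, with RNA helicases opening and closing duplexes. In blood cells the pathway is active in dividing progenitors, and many of its genes are known targets of MYC, which binds the E-box CACGTG. Because the study blocked C/EBP and AP-1, the promoters were searched for the sites of these factors, for the E-box and for the ETS core.

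A promoter window was available for 35 of the 42 genes, from 250 bases before to 50 bases after the RefSeq start on GRCh38.p14. Matches on both strands were counted, and positions are those of the first base of a match relative to the start base, which is 0. The E-box CACGTG, which reads the same on both strands, was present in 15 of 35 windows (42.9%), against 7.43% of 27305 windows of the same length. The ETS core CGGAAG was found in 16 of 35 windows (45.7%), against 19.9% of all windows. The C/EBP site TTGCNNAA occurred in 2 windows (5.71%, NCL and UBTF), against 10.6%. No window held the AP-1 site TGANTCA, which 7.76% of all windows held, and 3 windows (DKC1, NHP2 and POLR1B, 8.57%) held the composite TGANGCAA, against 3.34%. The cAMP response site TGACGTCA was found in DDX10 alone among the 35, against 1.98% of all windows. These are letter matches in a short window and say nothing about which factor sits there. The windows of these genes had a median GC content of 60.7%, against 58.3% for all windows.

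The E-boxes lay close to the start: 14 of the 16 matches began between -100 and 49. The stretches around them are printed for the 5 E-box genes that were called in a comparison below, with the E-box in capitals and 10 bases on each side, so that the differing flanks can be read. No E-box in these 5 genes overlapped a match of the ETS core.
FBL, chr19:39846358-39846383, minus strand, E-box at 6: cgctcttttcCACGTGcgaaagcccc
GNL2, chr1:37595919-37595944, minus strand, E-box at 3: acgtcgtgcaCACGTGgtccggcgtg
NOP10, chr15:34343291-34343316, minus strand, E-box at -170: agggacactcCACGTGttttagcctg
NOP10, chr15:34343132-34343157, minus strand, E-box at -11: aattgacgaaCACGTGacgcggtcgg
NOP14, chr4:2963376-2963401, minus strand, E-box at 15: cgcggcccggCACGTGtcttagggta
WDR43, chr2:28894660-28894685, plus strand, E-box at 3: cacggacgaaCACGTGgctgcagcgg

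Of the genes that were lower in dnCEBP, 3 had a window, and these are shown from -250 to 29 because they differ in the sites they hold. Capitals mark matches of the E-box, the ETS core or the C/EBP site. FBL held an ETS core at -192 and an E-box at 6, GAR1 held an ETS core in reverse at -28 and no E-box, and NCL held a C/EBP site at -221 and neither of the others.
FBL, chr19:39846350-39846629, minus strand: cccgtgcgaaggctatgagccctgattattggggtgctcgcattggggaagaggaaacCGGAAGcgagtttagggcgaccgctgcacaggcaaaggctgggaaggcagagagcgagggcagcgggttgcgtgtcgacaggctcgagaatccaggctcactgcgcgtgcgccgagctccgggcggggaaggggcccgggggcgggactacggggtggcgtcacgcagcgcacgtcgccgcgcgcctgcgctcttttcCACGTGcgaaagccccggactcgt
GAR1, chr4:109815260-109815539, plus strand: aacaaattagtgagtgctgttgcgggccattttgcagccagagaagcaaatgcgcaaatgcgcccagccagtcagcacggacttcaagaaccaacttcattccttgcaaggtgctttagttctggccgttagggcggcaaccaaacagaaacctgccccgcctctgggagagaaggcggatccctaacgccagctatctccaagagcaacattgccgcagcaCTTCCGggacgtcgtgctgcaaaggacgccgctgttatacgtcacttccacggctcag
NCL, chr2:231464455-231464734, minus strand: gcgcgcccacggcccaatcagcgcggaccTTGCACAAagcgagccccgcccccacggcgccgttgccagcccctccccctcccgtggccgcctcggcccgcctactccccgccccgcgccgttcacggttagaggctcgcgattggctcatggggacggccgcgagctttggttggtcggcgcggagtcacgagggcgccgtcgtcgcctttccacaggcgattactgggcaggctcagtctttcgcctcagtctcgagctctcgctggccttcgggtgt

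Levels differed widely among the 42 genes. Divided by the summed length of their annotated exons, EV levels ran from 0.62 ± 0.20 CPM per kb (SD, n = 2) for NOP2, a methyltransferase of the large subunit rRNA, to 498 ± 11.5 for NPM1, the histone-binding phosphoprotein that fills the outer nucleolus. NOP10 (135 ± 11.4 CPM per kb), the small core protein of H/ACA particles, and NCL (104 ± 1.57), the nucleolin that binds precursor rRNA, came next in order. GNL3, FBL and DDX21 followed at 45.2 ± 1.39, 44.2 ± 3.19 and 42.8 ± 0.54 CPM per kb. FBL could not be placed among these beyond its spread, and both libraries of GNL3 were above both of DDX21. The low end held MYBBP1A, UTP4, UTP15 and PPAN, at 3.03 to 3.56 CPM per kb. Summed over the 42 genes, the counts made up 0.515% of the library total in each EV library. The shares were 0.489% and 0.497% for the dnCEBP libraries, and 0.545% and 0.551% for the dnFOS libraries. With scaled library sizes the order of these shares did not hold, since the groups overlapped. The scaled sums ran from 5199 to 5292 CPM for EV, from 5008 to 5205 for dnCEBP and from 5177 to 5256 for dnFOS. NPM1 alone gave 1657 to 2193 CPM of them. The levels per length depend on the annotation, which credits every annotated exon to a gene. NOP2 and PPAN share 54.4% and 59.8% of their exonic bases with other genes on the same strand, so their places at the low end are uncertain.

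**Figure D1:**
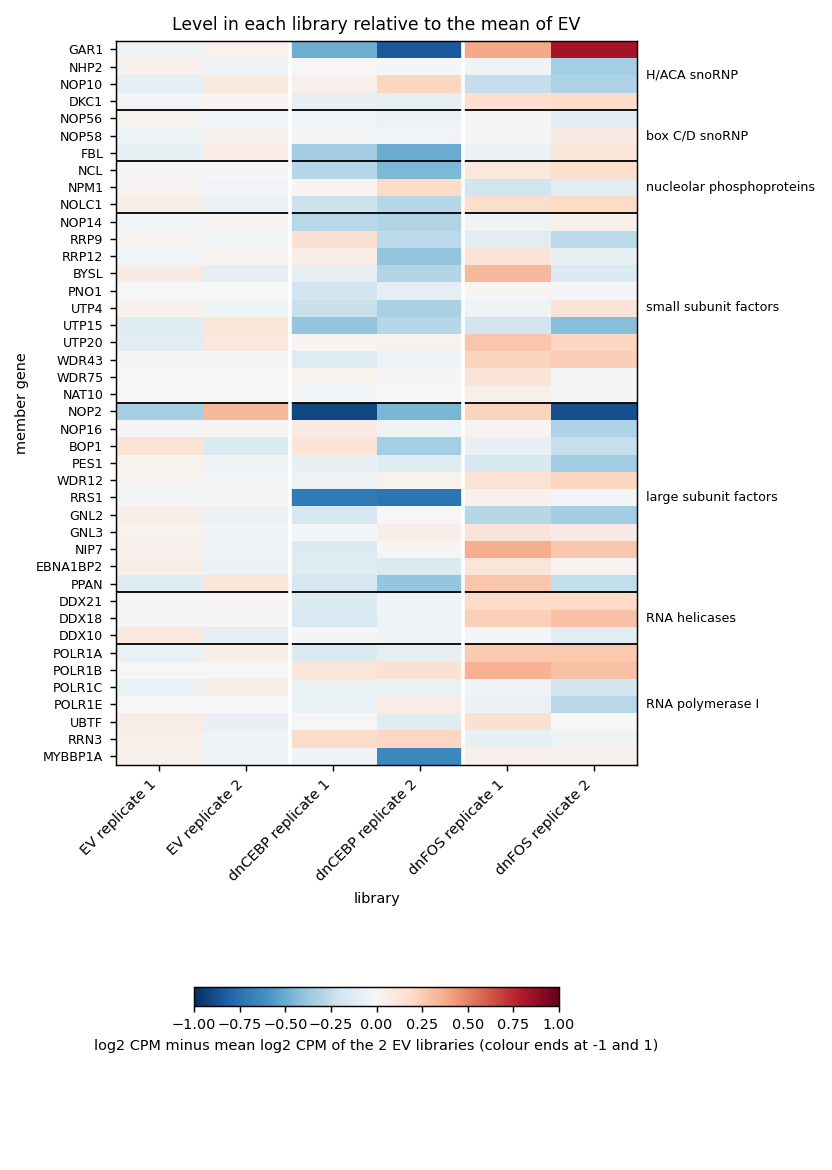
Each row is 1 of the 42 genes, grouped by role, and each column is 1 of the 6 libraries. Colour gives log2 CPM minus the mean log2 CPM of the 2 EV libraries, with red above and blue below. GAR1 is blue in both dnCEBP and red in both dnFOS libraries, RRS1 is blue in both dnCEBP libraries, and most other rows stay pale.

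The comparison of dnCEBP with EV asks which of these genes differ in cells given the peptide directed at C/EBP proteins. GAR1, FBL, NCL and RRS1 fell, by 0.65, 0.42, 0.37 and 0.72 on the log2 scale, and none of the 42 was called higher. In edgeR's quasi-likelihood test, with Benjamini-Hochberg adjustment over all 15395 genes and calls at an adjusted p under 0.05, 4 of 42 were called lower (9.52%) and 0 higher. Over all genes tested, 0.448% were called lower and 0.624% higher, 1.07% in all. DESeq2 called 3 lower and 0 higher, beside 51 and 91 of all 15395 genes. Limma-voom called 4 lower and 0 higher, beside 73 and 104 of all genes. At an unadjusted p under 0.05, 8 of the 42 were lower and 1 higher. The share of all genes at that unadjusted threshold was not counted in any comparison, so such counts are not read as a shift of a list. The median log2 fold change of the 42 was -0.09, with 33 below 0 and 9 above, and that of all genes was 0.00, with 7747 below and 7648 above. In bulk RNA, fewer cells of a kind and less RNA per cell cannot be told apart. The paper reports that both peptides reduced KO52 growth and increased the loss of GFP-positive cells relative to the empty vector. It proposes that the peptides are toxic. The part of slower growth or toxicity in the fold changes of either peptide was not tested.

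RRS1 (ENSG00000179041) encodes a factor that helps to bring the 5S ribonucleoprotein into the large subunit. Its levels were 16.9 and 17.3 CPM in EV, 10.5 and 10.3 CPM in dnCEBP, and 17.6 and 17.0 CPM in dnFOS. The dnCEBP libraries lay apart from the other 4, which overlapped. The log2 fold change was -0.72 ± 0.15 (SE, n = 2 against 2; adjusted p = 0.00831 in edgeR, and 0.00186 to 0.0129 over the 9 other settings), and leaving out any library left it between -0.73 and -0.70.

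GAR1 (ENSG00000109534, chromosome 4, 109815510 to 109824740) encodes a core protein of H/ACA particles, which it joins late in their assembly. Its levels were 17.7 and 18.7 CPM in EV, 13.0 and 10.2 CPM in dnCEBP, and 23.7 and 32.4 CPM in dnFOS, from 211 to 422 counts a library. The 3 groups did not overlap. Between dnCEBP and EV the log2 fold change was -0.65 ± 0.16 (adjusted p = 0.0305, edgeR). Its adjusted p rose to as much as 0.0563 with library totals alone or DESeq2, where the call was lost. The other 3 proteins of the particle, DKC1, the pseudouridine synthase itself, NHP2 and NOP10, had log2 fold changes of -0.09, -0.01 and 0.13 and were not called.

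FBL (ENSG00000105202, chromosome 19, 39834458 to 39846414) encodes fibrillarin, the methyltransferase of box C/D particles. It was at 91.0 and 101 CPM in EV, 75.5 and 67.8 CPM in dnCEBP, and 92.2 and 104 CPM in dnFOS. Both dnCEBP libraries were below all others. The fall was 0.42 ± 0.09 on the log2 scale (adjusted p = 0.0153, edgeR), and its partners NOP56 and NOP58, the paired scaffold proteins of the particle, had log2 fold changes of -0.05 and -0.02.

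NCL (ENSG00000115053, chromosome 2, 231453531 to 231483641) had 726 and 710.1 CPM in EV, 588 and 525 CPM in dnCEBP, and 771 and 812 CPM in dnFOS. The 3 groups did not overlap. Its log2 fold change in dnCEBP was -0.37 ± 0.09 (adjusted p = 0.0238, edgeR). NOLC1, the phosphoprotein known as Nopp140 that accompanies both kinds of particle, was lower in both dnCEBP libraries (89.9 and 85.8 CPM) than in EV (108 and 100.3 CPM), with a log2 fold change of -0.25 ± 0.08 that was not called (adjusted p = 0.186, edgeR). NPM1 had a log2 fold change of 0.11.

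Among the other role groups in dnCEBP, 0 of 11 small subunit factors were called in either direction, with log2 fold changes from -0.35 (UTP15) to 0.03 (UTP20) and 9 of 11 below 0. RRS1 was the single call among 11 large subunit factors, and 0 of 3 RNA helicases and 0 of 7 RNA polymerase I genes were called. Since 1.07% of all genes were called in this comparison, 0 calls in sets this small say little. NOP2 had a log2 fold change of -0.71 ± 0.35, close to that of RRS1, but its counts were 16 to 78 a library and its adjusted p was 0.419. MYBBP1A, a nucleolar protein that also binds MYB, was at 18.3 and 12.0 CPM in the dnCEBP libraries and was not called, and its groups overlapped.

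All 4 calls were lost without EV replicate 2 or without dnCEBP replicate 2, and 2 of them without EV replicate 1. Their signs held in all 6 such fits, which groups without overlap nearly ensure. The log2 fold change of GAR1 ran from -0.84 to -0.49, that of FBL from -0.50 to -0.35 and that of NCL from -0.45 to -0.29.

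**Figure D2:**
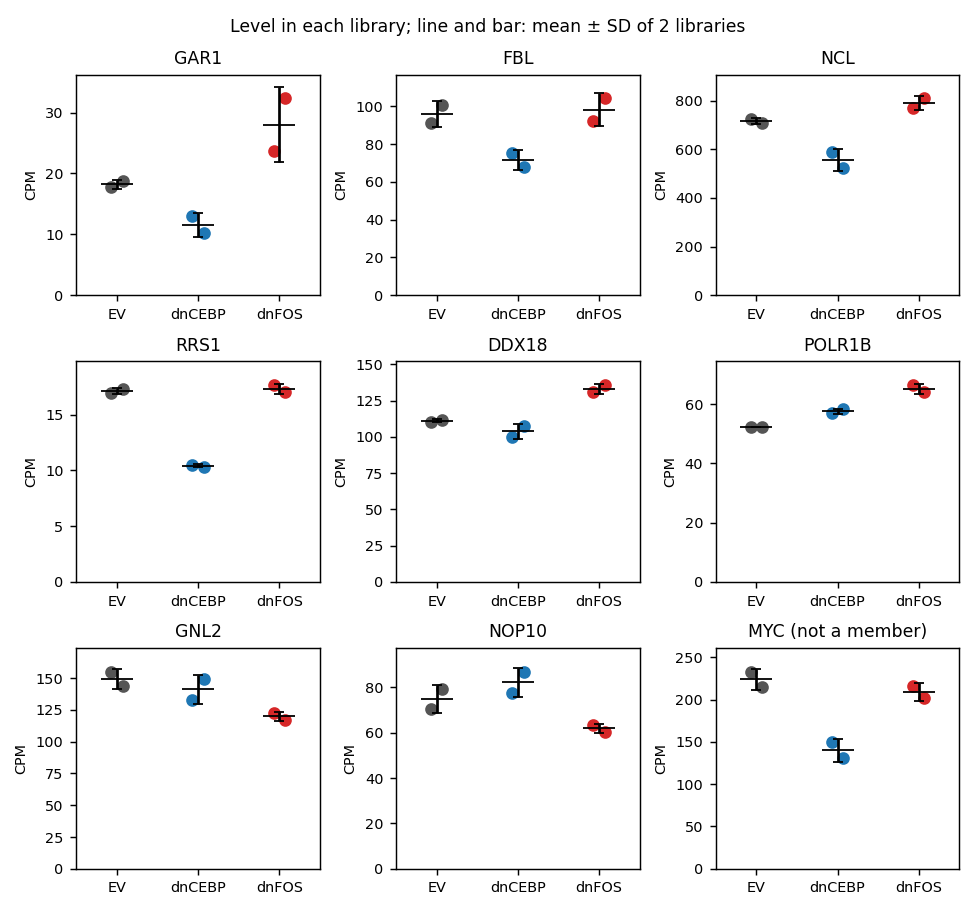
Points are the CPM of each library in EV, dnCEBP and dnFOS, with the mean and SD of the 2 libraries, for the 8 genes called against EV in either comparison and for MYC, which is not 1 of the 42. GAR1, FBL, NCL, RRS1 and MYC have both dnCEBP points below both EV points, and GNL2 and NOP10 have both dnFOS points below all others.

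MYC, a transcription factor known to drive ribosome production, was measured beside these genes. It stood at 233 and 215 CPM in EV, 149 and 130.5 CPM in dnCEBP, and 216 and 202 CPM in dnFOS. In dnCEBP it fell by 0.68 ± 0.09 on the log2 scale (adjusted p = 4.76e-05, edgeR), and in dnFOS its log2 fold change was -0.10 ± 0.09 (adjusted p = 0.499). The part of MYC in the lower levels of GAR1, FBL, NCL and RRS1 was not tested. Of the 4 genes, FBL held an E-box in its window, GAR1 and NCL did not, and RRS1 had no window. In dnCEBP the median log2 fold change was -0.13 over the 15 genes with an E-box and -0.05 over the 20 genes whose window had none, given as a description. In dnFOS against EV, where MYC was not called, the genes with an E-box also had the lower median, 0.01 beside 0.07. Between the peptides the medians were 0.22 with an E-box and 0.11 without. The part of the E-box in these differences was not tested. MAX, the partner of MYC, and MNT, a repressor of the same network, were not called in any of the 3 comparisons. MXI1, another repressor of that network, fell by 0.63 ± 0.11 in dnFOS (adjusted p = 0.000197, edgeR), from 56.6 and 52.8 CPM in EV to 36.9 and 33.5 CPM.

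The comparison of dnFOS with EV asks the same of the peptide directed at the AP-1 family. GAR1, POLR1B and DDX18 rose by 0.61, 0.32 and 0.26 on the log2 scale, and GNL2 and NOP10 fell by 0.32 and 0.27. In edgeR's test 3 of 42 were called higher (7.14%) and 2 lower (4.76%), against 7.24% and 7.76% of all genes tested, 15.0% in all. The share of the 42 that was called did not exceed that of all genes. At an unadjusted p under 0.05, 10 of the 42 were higher and 4 lower, again without a share of all genes. The median log2 fold change of the 42 was 0.03, with 26 above 0 and 16 below, and that of all genes was 0.00. Without dnFOS replicate 1 the median of the 42 was -0.01. Both comparisons with EV use the same EV libraries.

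GAR1 was 1.53-fold higher in dnFOS than in EV, a log2 fold change of 0.61 ± 0.15 (adjusted p = 0.00651, edgeR, and 0.000988 to 0.0134 over the 9 other settings). The size rested on both dnFOS libraries unequally, since it was 0.38 without dnFOS replicate 2, where the call was lost (adjusted p = 0.207), and 0.83 without dnFOS replicate 1. NOP10 (ENSG00000182117, chromosome 15, 34341713 to 34343177), of the same particle, moved the other way: it was at 70.4 and 79.4 CPM in EV, 77.6 and 86.8 CPM in dnCEBP, and 63.4 and 60.4 CPM in dnFOS. Both dnFOS libraries were below all others. The fall of 0.27 ± 0.09 was at the edge of the threshold (adjusted p = 0.0498, edgeR), and it was not called with library totals alone (log2 fold change -0.18), with DESeq2, with limma-voom or with the trend on GC content and length removed. Leaving out any EV or dnFOS library also ended this call. NHP2 and DKC1, the remaining proteins of the particle, had log2 fold changes of -0.18 and 0.18 and were not called.

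POLR1B (ENSG00000125630, chromosome 2, 112541915 to 112577150), which with POLR1A forms the catalytic core of RNA polymerase I, was at 52.2 CPM in both EV libraries, 56.8 and 58.2 CPM in dnCEBP, and 66.4 and 64.0 CPM in dnFOS. The groups did not overlap. Its log2 fold change was 0.32 ± 0.09 (adjusted p = 0.0193, edgeR). POLR1A was higher too in both dnFOS libraries (69.6 and 69.8 CPM) than in EV (55.5 and 60.8 CPM) and dnCEBP (52.7 and 54.3 CPM). Against EV it just missed the threshold, at 0.26 ± 0.09 (adjusted p = 0.0582, edgeR), and it was called once the trend on GC content and length was removed (0.31, adjusted p = 0.00791). POLR1C, POLR1E, UBTF, RRN3 and MYBBP1A, the other genes of this role group, ran from -0.16 to 0.08 and were not called.

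DDX18 (ENSG00000088205, chromosome 2, 117814650 to 117832379), a DEAD-box helicase of the large subunit pathway, had 110.3 and 112 CPM in EV, 100.1 and 108 CPM in dnCEBP, and 131 and 136 CPM in dnFOS. The dnFOS libraries were above the other 4. Its log2 fold change was 0.26 ± 0.08 (adjusted p = 0.0337, edgeR), and it was 0.10 and not called (adjusted p = 0.34) once the trend on GC content and length was removed. With no filter on low counts it was 0.25 and not called (adjusted p = 0.07). DDX21, a helicase that couples RNA polymerase I transcription to processing, had a log2 fold change of 0.20 (adjusted p = 0.114), and DDX10 one of -0.06.

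GNL2 (ENSG00000134697, chromosome 1, 37566816 to 37595935) encodes a GTPase needed to release the large subunit from the nucleus. It had 155 and 144 CPM in EV, 133 and 149 CPM in dnCEBP, and 122 and 117 CPM in dnFOS. EV and dnCEBP overlapped and both dnFOS libraries were below them. Its log2 fold change was -0.32 ± 0.09 (adjusted p = 0.0135, edgeR), and with library totals alone it was -0.22 and not called (adjusted p = 0.0715). NIP7, which acts in the cutting of the precursor, was higher in both dnFOS libraries (42.8 and 40.0 CPM) than in EV (34.2 and 32.2 CPM), with a log2 fold change of 0.32 ± 0.11 that was not called (adjusted p = 0.0542, edgeR). PES1, BOP1 and WDR12, which bind each other in the PeBoW complex, had log2 fold changes of -0.25, -0.15 and 0.18 and were not called. NOP2, NOP16, RRS1, GNL3, EBNA1BP2 and PPAN ran from -0.21 to 0.11.

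The 3 box C/D proteins had log2 fold changes from -0.06 to 0.03 in dnFOS and none was called. NOP56, the member of that group with the most negative value, was at 190.1 and 184 CPM in EV, 183 and 179 CPM in dnCEBP, and 185 and 173 CPM in dnFOS. None of the 3 nucleolar phosphoproteins was called: NOLC1, at 118 and 119 CPM in dnFOS, had a log2 fold change of 0.19 ± 0.08, NCL one of 0.14 and NPM1 one of -0.16. None of the 11 small subunit factors was called either. UTP15, a subunit of the complex that starts assembly on the nascent precursor, was at 20.2 and 24.0 CPM in EV, 16.8 and 18.1 CPM in dnCEBP, and 19.3 and 16.4 CPM in dnFOS, a log2 fold change of -0.30 ± 0.14 in dnFOS (adjusted p = 0.174, edgeR). WDR43 of the same complex was at 108 and 109 CPM in EV and 127 and 129 CPM in dnFOS, a log2 fold change of 0.23 ± 0.08 (adjusted p = 0.0573). The remaining 9 factors of the small subunit ran from -0.18 (RRP9) to 0.25 (UTP20).

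The calls of this comparison depended on single libraries. GNL2 was no longer called without dnFOS replicate 2 (adjusted p = 0.073) or without EV replicate 1 (0.185), DDX18 without dnFOS replicate 2 or either EV library (0.155 to 0.207), and POLR1B without dnFOS replicate 1 or either EV library (0.0749 to 0.142), all in edgeR.

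**Figure D3:**
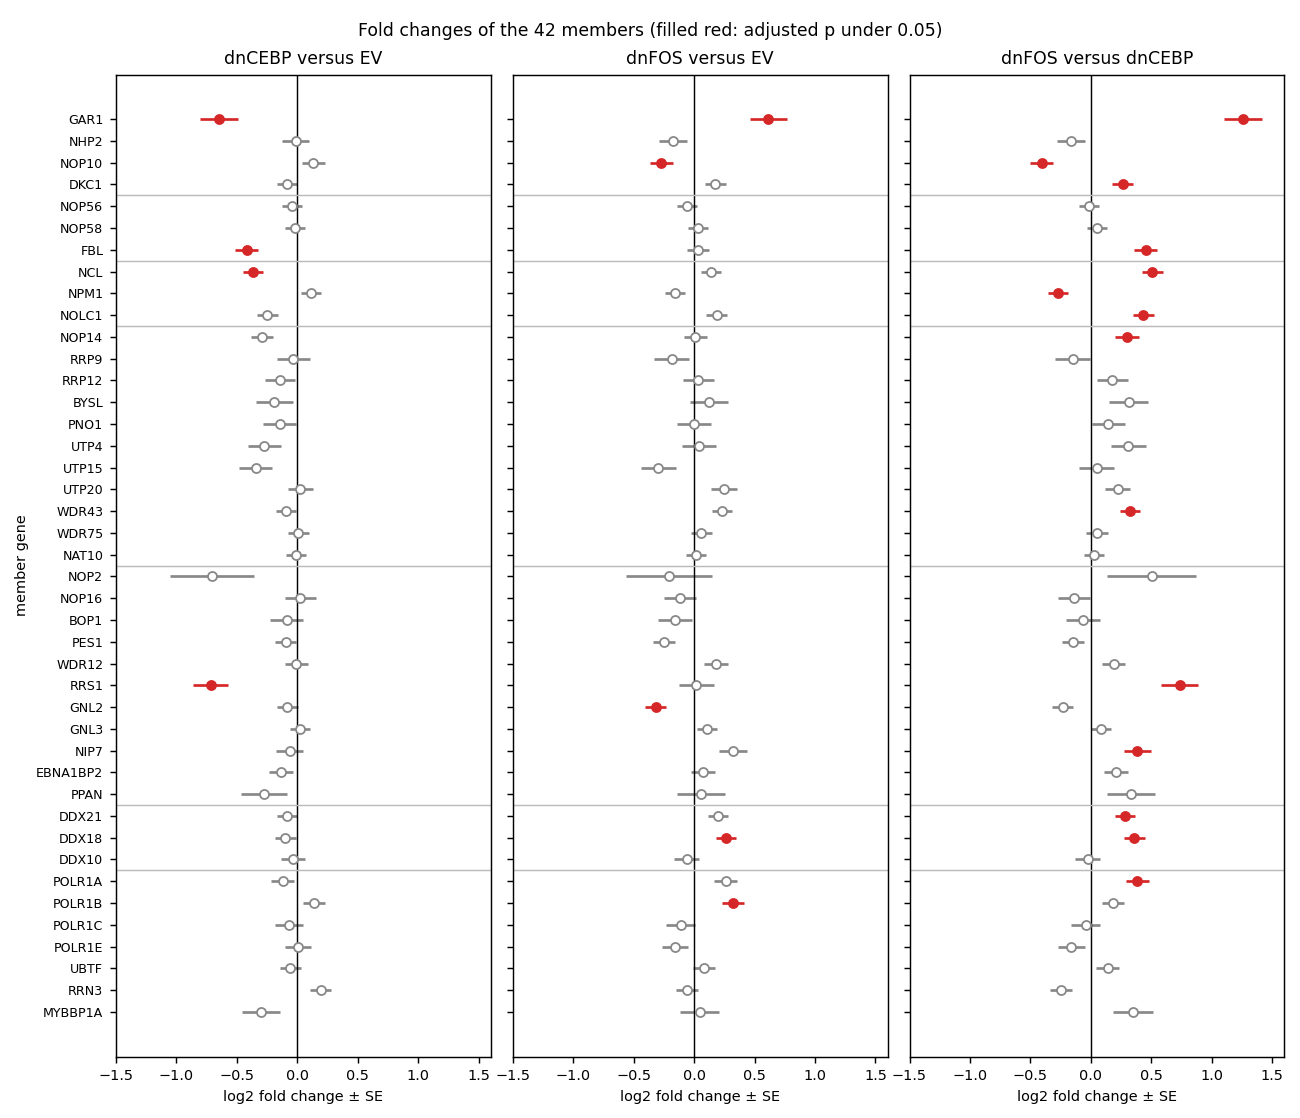
Log2 fold change with its SE for each of the 42 genes, ordered by role, in the 3 comparisons. Filled red points passed an adjusted p of 0.05. The 4 red points in dnCEBP against EV lie left of 0, those in dnFOS against EV are 3 to the right and 2 to the left, and those in dnFOS against dnCEBP are 12 to the right and 2 to the left.

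Setting dnFOS against dnCEBP shows which of the 42 genes respond unequally to the peptides. GAR1, RRS1, NCL, FBL and NOLC1 had the largest rises among the genes called, and NOP10 and NPM1 fell. NOP2, with its low counts, had a log2 fold change of 0.50 ± 0.37 that was not called. In edgeR's test, 12 of 42 genes were called higher (28.6%) and 2 lower (4.76%), while 6.83% and 7.84% of all genes tested were called in these directions, 14.7% in all. At an unadjusted p under 0.05, 16 of the 42 were higher and 4 lower, again without a share of all genes. The median log2 fold change of the 42 was 0.18, with 29 above 0 and 13 below, and that of all genes was 0.02. Without dnFOS replicate 1 the median of the 42 was 0.06. The libraries are those of the comparisons above, so these calls are not independent of them. As the 42 genes were chosen with earlier results known, the shares are a description.

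GAR1 differed by the largest amount among the 42 in this comparison: it was 2.39-fold higher in dnFOS, a log2 fold change of 1.26 ± 0.16 (adjusted p = 1.26e-06, edgeR), and the call held without any single library, at 1.03 to 1.48. RRS1 was 1.66-fold higher (0.73 ± 0.15, adjusted p = 0.00107), NCL 1.42-fold (0.51 ± 0.09, adjusted p = 0.000104), FBL 1.37-fold (0.45 ± 0.09, adjusted p = 0.00102) and NOLC1 1.35-fold (0.43 ± 0.09, adjusted p = 0.000627), all in edgeR. These 5 calls held in all 6 fits that left out 1 library. For RRS1 and FBL the dnFOS libraries overlapped EV, and both dnCEBP libraries were below them.

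POLR1A rose by 0.38 ± 0.09 (adjusted p = 0.00545, edgeR), NIP7 by 0.38 ± 0.11 (0.0208), DDX18 by 0.36 ± 0.08 (0.00364), WDR43 by 0.33 ± 0.08 (0.00781), NOP14, a small subunit factor, by 0.30 ± 0.10 (0.0331), DDX21 by 0.28 ± 0.08 (0.0199) and DKC1 by 0.26 ± 0.08 (0.0332). In DDX18, WDR43, DDX21, NIP7, POLR1A and DKC1 both dnFOS libraries were above all EV and dnCEBP libraries. WDR43, for example, was at 108 and 109 CPM in EV, 99.3 and 105 CPM in dnCEBP and 127 and 129 CPM in dnFOS. NOP14 was at 59.5 and 61.0 CPM in EV, 49.6 and 48.8 CPM in dnCEBP and 58.7 and 62.6 CPM in dnFOS, so its dnCEBP libraries were the ones that stood apart.

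NOP10 fell by 0.41 ± 0.09 (adjusted p = 0.00343, edgeR) and NPM1 by 0.27 ± 0.09 (adjusted p = 0.0291). NPM1 (ENSG00000181163, chromosome 5, 171387116 to 171411137) was at 1938 and 1876 CPM in EV, 1935 and 2193 CPM in dnCEBP, and 1657 and 1763 CPM in dnFOS. EV lay between the peptides and overlapped dnCEBP. With library totals alone its fall was 0.15 and not called.

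Of the 14 calls between the peptides, those of NOP14, DKC1, DDX21 and NPM1 were each lost in at least 1 setting: NPM1 with library totals (adjusted p = 0.189), NOP14 with no filter, only the 2 groups compared, DESeq2 or limma-voom (adjusted p up to 0.0778), DKC1 with no filter, the 2 groups or DESeq2 (up to 0.101), and DDX21 with the 2 groups (up to 0.0612). DKC1 was called in 0 of 6 fits that left out 1 library, NOP14 in 1 and NPM1 in 3. Without dnCEBP replicate 1 the count of genes called higher dropped from 12 to 6, and without dnCEBP replicate 2 that of genes called lower dropped from 2 to 0. DDX18 was among the calls lost without dnCEBP replicate 1 (adjusted p = 0.0615, edgeR), and NOP10 was lost without dnCEBP replicate 2 (0.0691).

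Over the 3 comparisons, 16 of the 42 genes were called at least once and 26 were not called in any. In the 23 calls the libraries of the 2 groups did not overlap, which a call at this group size nearly requires, so it adds no support. Some genes not called, such as RRP9 in dnFOS against EV, did not overlap either, and the share over all genes was not counted. The 26 were NHP2 of the H/ACA group, NOP56 and NOP58 of box C/D, 9 small subunit factors (RRP9, RRP12, BYSL, PNO1, UTP4, UTP15, UTP20, WDR75 and NAT10), 8 large subunit factors (NOP2, NOP16, BOP1, PES1, WDR12, GNL3, EBNA1BP2 and PPAN), DDX10, and POLR1C, POLR1E, UBTF, RRN3 and MYBBP1A. NAT10, which acetylates cytidines of the small subunit rRNA, stayed between 101 and 107 CPM in all 6 libraries.

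The GC content of the transcripts ran from 37.7% to 65.2% over the 42 genes. Fold changes and GC content were related across all genes, with Pearson's r of -0.303 in dnFOS against EV and -0.214 in dnCEBP against EV over 15222 genes. Over the 42 genes r was -0.229 and -0.297, as a description across genes that share libraries. With a smooth trend on GC content and length removed from each library, 5 of 42 were called lower in dnCEBP (NOLC1 was added), and in dnFOS 4 were called higher and 3 lower. Over all 15222 genes this setting called 149 higher and 115 lower in dnCEBP against EV, beside 96 and 69 in the main fit. In dnFOS against EV it called 743 higher and 1320 lower, beside 1115 and 1194. In dnFOS this setting added NIP7 and POLR1A among the higher genes and NPM1 and UTP15 among the lower, and left out DDX18 and NOP10. After this step r over the 42 genes was 0.431 in dnFOS and 0.039 in dnCEBP against EV, so its sign changed, and over all genes it was -0.016 and -0.009. The part of GC content in the fold changes was not tested beyond this.

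**Figure D4:**
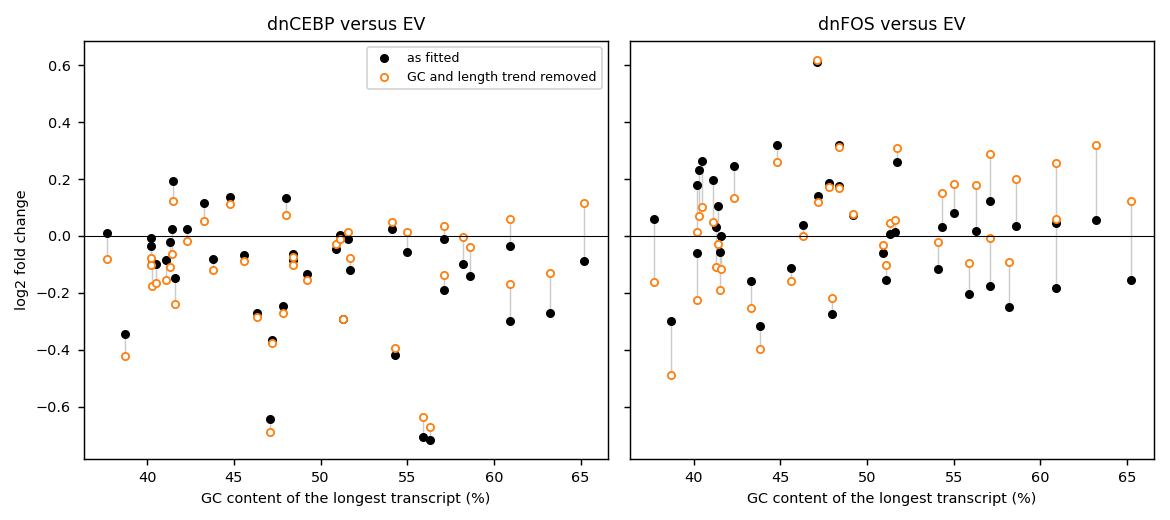
Log2 fold change of each of the 42 genes against the GC content of its longest transcript, in percent, for dnCEBP and dnFOS against EV. Filled points are as fitted, open points have the trend on GC content and length removed, and a grey line joins the 2 values of a gene. GAR1 stays near 0.6 in dnFOS, and genes of high GC content move upwards in that panel.

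The split of calls into higher and lower in dnFOS depended on the scaling. With library totals in place of TMM factors the median of all genes moved to 0.10 in dnFOS against EV and to 0.14 in dnFOS against dnCEBP, and calls among all genes went from 1115 higher and 1194 lower to 1906 higher and 676 lower in dnFOS against EV, and from 1052 and 1207 to 2100 and 716 between the peptides. The GC setting gave 743 higher and 1320 lower in dnFOS against EV. Of the 42 genes, library totals called 12 higher and 0 lower in dnFOS against EV, with a median of 0.13 beside the 0.10 of all genes.

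A list of 119 other ribosome biogenesis genes showed how the rest of the pathway stood. In dnCEBP against EV, 0 of 119 were called in either direction in edgeR, DESeq2 or limma-voom. This is near the share of all genes, 1.07% in edgeR. At an unadjusted p under 0.05 in edgeR 2 were higher and 7 lower, without a share of all genes. The median log2 fold change was 0.00. In dnFOS against EV, 9 were called higher and 12 lower (7.56% and 10.1%, beside 7.24% and 7.76% of all genes), with a median of -0.04. With library totals these counts were 26 and 6. Between the peptides 8 were called higher and 11 lower (6.72% and 9.24%, beside 6.83% and 7.84%), with a median of -0.02, and with library totals 19 and 1.

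In dnFOS against EV, RRP15, a large subunit factor, EXOSC6, a subunit of the RNA exosome, and POLR1F, an RNA polymerase I subunit, rose by 0.60 ± 0.14, 0.46 ± 0.12 and 0.42 ± 0.10 on the log2 scale. DHX37 and DDX49, helicases of the small subunit pathway, and NOP53, which docks the exosome, fell by 0.53 ± 0.12, 0.52 ± 0.12 and 0.43 ± 0.10. RRP15, POLR1F and DDX49 were not called with the trend on GC content and length removed. Between the peptides GNL3L, RRP15 and EXOSC6 rose by 0.46, 0.43 and 0.43, and ZNHIT3, which helps to assemble box C/D particles, DDX49 and AATF fell by 0.54, 0.41 and 0.39. RRP15 lost this call with DESeq2 and with the GC setting, and DDX49 and AATF with library totals.

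The 79 cytosolic ribosomal protein genes, the cargo of the pathway, were on the lower side in dnFOS: in edgeR's test against EV 29 were called lower (36.7%, beside 7.76% of all genes) and 0 higher (beside 7.24%), with a median log2 fold change of -0.22. DESeq2 called 34 lower and 0 higher and limma-voom 37 and 0, 1 gene was higher and 46 lower at an unadjusted p under 0.05, and library totals gave 11 lower and 1 higher. In dnCEBP against EV 0 of 79 were called in either direction by edgeR, near the 1.07% of all genes. DESeq2 called 0 and limma-voom 2 lower, and 2 were higher and 4 lower at an unadjusted p under 0.05 in edgeR. Between the peptides 42 were called lower (53.2%, beside 7.84% of all genes) and 0 higher (beside 6.83%), with a median of -0.27, and library totals gave 15 lower and 0 higher. At an unadjusted p under 0.05 these were 51 lower and 0 higher. No share of all genes was counted at the unadjusted thresholds given here. DESeq2 called 47 lower and 1 higher there, and limma-voom 48 and 1.

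**Figure D5:**
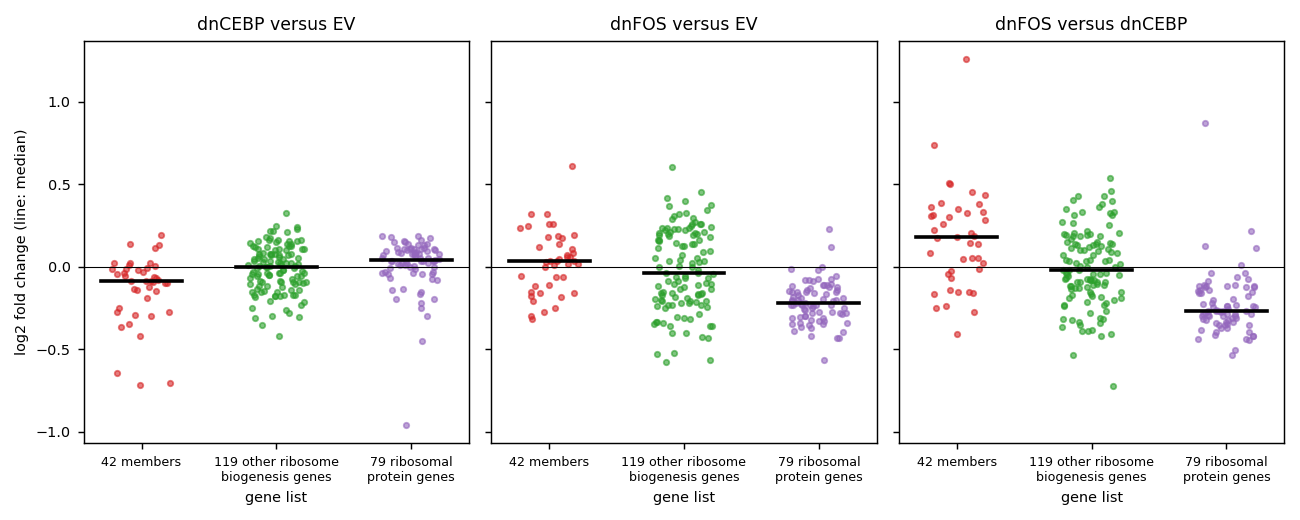
Log2 fold change of each gene in the 42 factors, the 119 other ribosome biogenesis genes and the 79 cytosolic ribosomal protein genes, in the 3 comparisons, with a black line at the median. In dnFOS the medians are 0.03, -0.04 and -0.22, and in dnCEBP they are -0.09, 0.00 and 0.04.

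The guide RNAs that work with these proteins were measured in part, since total RNA depleted of ribosomal RNA was sequenced. SNORD3A, the U3 RNA that the small subunit pathway is built on, was at 2485 and 3083 CPM in EV, 2324 and 1568 CPM in dnCEBP, and 2491 and 3249 CPM in dnFOS. Both dnCEBP libraries were the lowest, and it was not called in any comparison in edgeR's test over all 6 libraries (adjusted p = 0.60 in dnCEBP against EV). Limma-voom called it lower in dnCEBP than in EV or dnFOS, and edgeR fitted to the 2 groups alone called it between the peptides. SNORD13 was at 33.9 and 46.1 CPM in EV, 23.9 and 17.3 CPM in dnCEBP, and 28.9 and 19.4 CPM in dnFOS. EV was above both peptides, at log2 fold changes of -0.95 ± 0.21 and -0.71 ± 0.22 that were not called (adjusted p = 0.0814 and 0.0568, edgeR), though some other settings, limma-voom among them, called both. SNORA73B was not called in any comparison in edgeR, though limma-voom called it lower in dnFOS against both other groups. SNORD118 and SNORA73A had 0 counts in every library. Copies of such RNAs share reads, and how shared reads were counted was not stated. The levels of these RNAs are therefore a description only, and the 0 counts do not show absence.

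Some of the counts share sequence with other genes. For NOP2, 54.4% of the exonic bases also belong to AC006064.6 on the same strand, a gene with 0 counts in every library, and how reads of that stretch were counted was not stated, so the level of NOP2 is uncertain. For PPAN, 59.8% lie within P2RY11 or the readthrough gene PPAN-P2RY11, which had at most 1 count. With AC006064.6 and the readthrough gene nearly without counts, reads of shared exons did not appear under both genes, so NOP2 and PPAN may be undercounted. NPM1 has 45 annotated pseudogenes, which together held 0.208% to 0.402% of its count. The use of strand in counting was not stated, so genes with a partner on the other strand are uncertain too: such partners overlap 27.4% of the exonic bases of NHP2 (RMND5B), 20.2% of NIP7 (COG8), 18.8% of EBNA1BP2, 18.2% of POLR1C, 17.1% of NOP14 (NOP14-AS1) and 10.4% of PNO1, and part of NOP16. For RRS1, 11.4% belong to AC009879.2 on the same strand. NOP56, NOP58, NCL, GNL3, WDR43, DKC1, PPAN and POLR1C carry small nucleolar RNA genes within their bounds.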

How the data were processed

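Total RNA of 6 KO52 libraries (EV, dnCEBP and dnFOS, 2 each) was depleted of ribosomal RNA, amplified over 15 PCR cycles and sequenced as 75-base paired reads. The authors deposited raw counts per gene for each library, as whole numbers with no normalization. The submitters' processing notes name Trimmomatic, HISAT2, featureCounts, Subread and hg38. Versions, annotation, strand setting and the treatment of shared reads are not given in the sources used here. Groups and replicate numbers came from the titles.

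The 42 genes, the gene lists and the settings were chosen with earlier results of these data known. Gene IDs were matched to GENCODE 29 on GRCh38 (58394 of 60612 IDs), which gave coordinates, exonic lengths and GC content. Counts were fitted with edgeR 4.0.16 in R 4.3.3 (filterByExpr, minimum count 10; TMM, factors 0.956 to 1.05; robust quasi-likelihood, 1 mean per group over all 6 libraries, 3 residual degrees of freedom, biological coefficient of variation 0.0961). Tests were two-sided. P-values were adjusted over all 15395 genes by the Benjamini-Hochberg method and called under 0.05. CPM values use scaled library sizes, except for markers, which use library totals. SEs came from the fold change and its F statistic. At 3 counts the floor was 0.108 to 0.304 CPM, which covers counting error only. The script was tested on simulated data.

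Every called gene was named, with values per library for the 10 smallest adjusted p-values and for the member of each role group with the largest absolute fold change in dnFOS against EV. The further ribosome biogenesis genes named were the 3 largest called rises and falls per comparison. NIP7, NOP14, NPM1, NAT10 and MYBBP1A were given values per library after these were seen. Alternatives were DESeq2 1.42.0, limma-voom (limma 3.58.1), no filter or one of 1 CPM on the mean, scaling by median of ratios or by totals, leaving out features above 1% of a library, fitting only the 2 groups compared, a smooth trend on GC content and length removed from each library (mgcv 1.9.3; 98.88% of genes had both), the replicate number as a block, and each library left out. The range of adjusted p over settings leaves out the block and the left-out libraries. Replicates differed by more than sampling noise. Promoter windows came from RefSeq on GRCh38.p14 and matched 35 of 42 genes by symbol. NOP58, NOLC1, RRP12, BOP1, RRS1, DDX18 and POLR1E were not analysed there.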

Additional observations from a re-analysis of the deposited data

How the results depend on the processing

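Of the 23 calls, the direction held in each of the 9 other settings. It also held in every fit without 1 library, which groups without overlap nearly ensure, so this adds no support. The calls themselves were kept in 189 and lost in 18 of the 207 refits under those 9 settings. The fits without 1 library are not among these refits, and calls were lost more often in them. For genes called higher in dnFOS against EV (3), a mean of at least 1 CPM gave 5 and library totals 12. For genes called lower there (2), DESeq2 and limma-voom gave 1 and library totals 0. Between the peptides, library totals gave 1 lower and the GC and length setting 4 lower, against 2. Over all genes these settings called 716 and 1601 lower, against 1207. The median of the 42 between the peptides was 0.30 with library totals, against 0.18. The causes were not tested. Leaving out 1 library moved the genes called lower in dnCEBP between 0 and 4, those higher and lower in dnFOS against EV between 1 and 3 and between 0 and 2, and those higher and lower between the peptides between 6 and 10 and between 0 and 2. Such fits leave a group with 1 library, whose spread is assumed to match the others. Calls among 15395 genes went from 165 to 297 in dnCEBP against EV when only the 2 groups were fitted.

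Same-numbered libraries of different groups did not deviate together (r = 0.017 to 0.088 across genes), so the numbers were not taken as pairs. With the replicate number as a block, all 23 calls were kept and 6 genes were called higher in dnFOS against EV and 4 lower between the peptides, while 5 were lower in dnCEBP and 3 lower in dnFOS against EV. Genes not called are not shown to be equal. The shallow dnFOS libraries held as few as 16 counts of NOP2.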
